A study of Homo sapiens with 9 samples.

Results

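The TGF-beta ligand, receptor and SMAD target genes described here are 10 genes of 27548 rows in the expression table: TGFB1, TGFB2, TGFBR1, TGFBR2, TGFBI, PMEPA1, SMAD6, SMAD7, SKIL and LTBP2. They were taken by gene symbol, each symbol was on 1 row, and none of the 10 averaged under 1 log2 CPM. CPM is the reads of a gene scaled to a fixed library size, here on a log2 scale. The RNA came from MDA-MB-231, a human breast cancer line of the triple-negative kind, which lacks estrogen receptor, progesterone receptor and amplified HER2. Each of 3 groups had 3 libraries. Libraries S1 to S3 were control cells that received a control siRNA (CTL+siCTL), and S4 to S6 were cells overexpressing TLX, an orphan nuclear receptor whose gene is NR2E1, that received the same control siRNA (TLX+siCTL). S7 to S9 were overexpressing cells that received an siRNA targeting TLX (TLX+siTLX), called the siRNA libraries here. All cells were transfected for 48 h, so the controls carry a transfection too. How TLX was overexpressed, whether the overexpressing cells are 1 clone, and what the word PC3 in the control titles stands for is not given in the sources used. Differences between the control and overexpressing cells other than TLX cannot be told apart from it. Between TLX+siTLX and TLX+siCTL the siRNA differs, so other effects of the siRNA against TLX cannot be told apart from its effect on TLX.

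TGF-beta ligands are secreted in a latent form, bound to their own propeptide and, through latent TGF-beta binding proteins, to the extracellular matrix. The released ligand binds the type II receptor TGFBR2, which recruits and phosphorylates the type I receptor TGFBR1. This kinase then phosphorylates SMAD2 and SMAD3, which enter the nucleus with SMAD4 and change transcription. Many of the genes switched on in this way, such as SMAD7, SMAD6, SKIL and PMEPA1, in turn restrain the pathway. In breast tissue TGF-beta is known for holding back the growth of normal epithelium and for favouring invasion and metastasis in advanced carcinoma. TLX is known mainly as a transcriptional repressor in neural stem cells.

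Effective library sizes, read from the steps between low values, were 73.8 to 91.8 M reads, and the members had 239 to 28003 estimated reads in a library. Within TLX+siTLX the libraries lay further apart than within the other groups. S9 was the furthest: a chi-square statistic of its rebuilt reads, averaged over genes, came to 55.3 with S7 and 32.2 with S8, while pairs in the other groups gave 9.22 to 15.2. The range of a member within a group had a median of 0.25 log2 units over the 10 members in TLX+siTLX, of 0.11 in CTL+siCTL and of 0.092 in TLX+siCTL. S7 was the lowest TLX+siTLX library for 7 of the 10 and S9 the highest for 5. NR2E1 had group means of -4.46 ± 0.16, -0.11 ± 0.63 and -2.59 ± 0.82 log2 CPM (SD, n = 3) in CTL+siCTL, TLX+siCTL and TLX+siTLX, where the lowest value of the table is -5.33. In S9 it was at -1.77, the highest of TLX+siTLX. The summed level of 7 markers of mesenchymal breast lines was 3798 to 3902 CPM in the controls, 4197 to 4272 in TLX+siCTL and 5556 to 5857 in TLX+siTLX. Of the 7 only SPARC averaged under 1 log2 CPM. In TLX+siCTL 3 of the 7 rose (AXL, CAV1 and CD44, by 1.13, 0.96 and 0.46) and 2 fell (VIM and ZEB1, by 0.64 and 0.38), and 5 rose with the siRNA. The 7 luminal markers summed to 121 to 126, 98.1 to 109 and 106 to 122 CPM in the 3 groups. Among them ESR1, which encodes estrogen receptor alpha, averaged -2.39, -2.58 and -2.31 log2 CPM. In TLX+siCTL SPDEF, TFF1 and PGR fell (log2 fold changes of -2.27, -1.83 and -2.22) and GATA3 and ERBB2 rose (0.93 and 0.22). TFF1 and PGR averaged under 1 log2 CPM, and PGR ranged from -0.84 to 1.14 log2 CPM within CTL+siCTL. HOXB13, a prostate marker, was at the lowest value in all 3 CTL+siCTL libraries. The summed level of the 8 prostate markers was 38.9 to 41.5 CPM, 39.3 to 41.8 CPM and 41.0 to 43.5 CPM in the 3 groups. That of the 7 epithelial markers with a row was 506 to 538, 433 to 468 and 522 to 534 CPM. KRT19 gave the largest part of this sum, with group means of 8.57, 8.15 and 8.53 log2 CPM. In TLX+siCTL CDH1 and KRT19 fell (-3.03 and -0.42), EPCAM rose (0.21) and 4 of the 7 did not pass. CDH1 averaged under 1 log2 CPM. The epithelial sum was lower in TLX+siCTL than in the controls, as were the luminal sum and most members. The part of this in the results below was not tested.

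In TLX-overexpressing cells most of the members were lower than in control cells, and with the siRNA against TLX most of these were higher again. In TLX+siCTL against CTL+siCTL 8 of the 10 members fell, 1 rose and SMAD7 did not pass the test. The median log2 fold change of the 10 was -0.71, against 0.01 over the 12564 rows that averaged 1 log2 CPM or more, called expressed rows here. In that comparison 30.1% of all rows passed an adjusted p of 0.05. Among the expressed rows 29.3% rose and 27.4% fell. The members were chosen with earlier results of these data known, so their counts and medians beside those of all rows are descriptions and not a test. In TLX+siTLX against TLX+siCTL 7 members rose, 2 fell and SKIL did not pass (median 0.58). There 23.7% of all rows passed, and 23.8% of the expressed rows rose and 22.0% fell. Without S6 or without S9 6 of the 10 members passed in this comparison, in place of 9. TGFBR1, SMAD6 and SMAD7 were then at adjusted p of 0.0692, 0.0649 and 0.0655 without S6 and of 0.0522, 0.0619 and 0.0539 without S9. In TLX+siTLX against CTL+siCTL 4 members were lower, 1 was higher and 5 did not pass (median -0.16), where 34.6% of all rows passed and 32.4% of the expressed rows rose and 31.2% fell. Over the 3 groups all 10 members passed limma's moderated F test, as did 75.1% of the expressed rows. Each result was also computed under 16 alternatives, namely other filters, scalings and models and fits without 1 library. The 3 comparisons share groups, so they are set side by side and not counted as independent. RNA of whole cultures cannot separate fewer cells with a transcript from less transcript per cell.

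**Figure D1:**
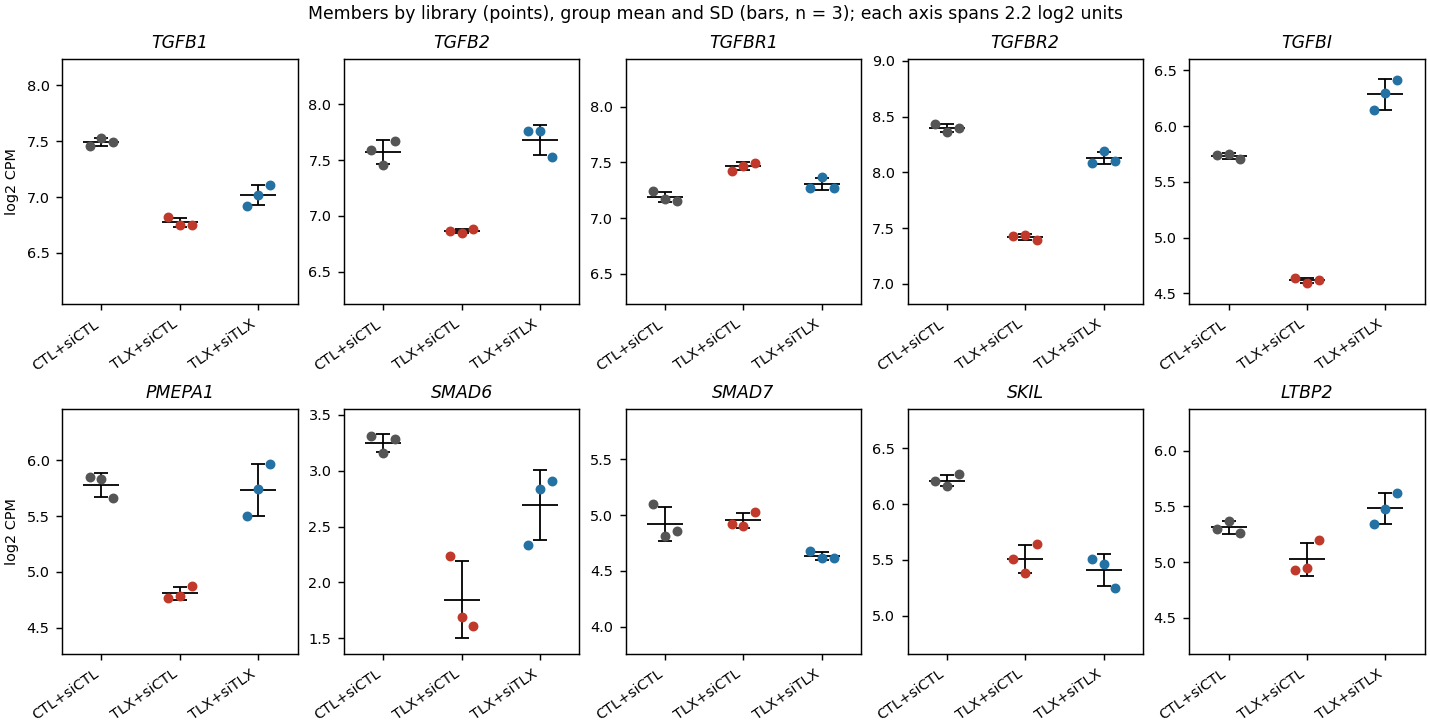
Log2 CPM of the 10 members (vertical axes, each spanning the same width of log2 units) in the 9 libraries, by group (horizontal axes); points are libraries, long bars the group mean and error bars the SD (n = 3). TGFB1, TGFB2, TGFBR2, TGFBI, PMEPA1, SMAD6 and LTBP2 had their lowest group mean in TLX+siCTL, TGFBR1 its highest, SKIL was lower in both TLX groups, and SMAD7 was lowest in TLX+siTLX.

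Promoter sequence is shown before the values of each member, because the members are grouped as SMAD targets and because TLX binds DNA. RefSeq (GRCh38.p14) holds promoters for all 10 members. The 250 bases before each gene's most upstream start were searched on both strands for the TLX monomer motif AAGTCA, the SMAD box CAGAC, the palindromic SMAD element GTCTAGAC and the AP-1 motif TGACTCA. None of these motifs lies within another. AAGTCA was in 0 of the 10 windows and in 10.9% of all 35116 promoter windows, and TGACTCA was in 0 and in 4.20%. CAGAC was in 3 of the 10 (TGFB2, SMAD7 and SKIL) and in 38.0% of all windows. In SKIL it was on the reverse strand, so it reads GTCTG here. GTCTAGAC was in 1 of the 10, SMAD6, and in 0.182% of all windows, that is 64 windows. It lay 12 to 5 bases before the SMAD6 start. Only 1 window per member was searched, while the shares of all windows count every listed start. TGFBR1 has 8 listed starts, PMEPA1 4, SMAD7 3 and TGFBR2 2, so a motif at another start of these genes would be missed. For PMEPA1 and SMAD7 all 250 bases searched lie in annotated exons. The windows of 4 genes are printed, 5′ to 3′ on the plus strand, with motif matches on either strand in capitals: SMAD6 for the palindrome, SKIL and TGFB2 for the SMAD box, and TGFBR2 as a window of a strongly changed member with no match. Bases that GENCODE 29 places in an exon are left off, except the last 8 of SMAD6, so a second TGFB2 box is not shown. A match is a run of letters and not evidence of binding.
SMAD6, chr15:66701986-66702235: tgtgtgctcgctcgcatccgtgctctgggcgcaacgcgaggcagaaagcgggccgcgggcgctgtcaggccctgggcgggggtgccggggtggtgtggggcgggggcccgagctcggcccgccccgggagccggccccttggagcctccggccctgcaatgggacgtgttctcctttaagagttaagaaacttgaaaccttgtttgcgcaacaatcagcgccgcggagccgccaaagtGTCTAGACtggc
SKIL, chr3:170357465-170357677: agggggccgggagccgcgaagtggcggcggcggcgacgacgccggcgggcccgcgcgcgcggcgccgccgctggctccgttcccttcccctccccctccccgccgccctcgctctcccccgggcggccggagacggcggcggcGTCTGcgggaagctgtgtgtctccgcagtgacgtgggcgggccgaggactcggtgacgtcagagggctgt
TGFB2, chr1:218345086-218345174: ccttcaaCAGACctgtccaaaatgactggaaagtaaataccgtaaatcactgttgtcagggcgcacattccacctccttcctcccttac
TGFBR2, chr3:30606106-30606355: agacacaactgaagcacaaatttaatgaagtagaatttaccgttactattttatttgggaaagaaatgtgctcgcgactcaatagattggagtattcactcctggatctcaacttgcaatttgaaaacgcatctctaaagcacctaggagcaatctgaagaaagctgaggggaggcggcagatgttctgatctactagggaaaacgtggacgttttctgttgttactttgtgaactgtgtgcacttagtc

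Among the ligands, TGFB1 and TGFB2 both fell in TLX+siCTL and rose with the siRNA. TGFB1 (ENSG00000105329, GRCh38 chromosome 19, 41301587 to 41353911, minus strand) encodes the most widely expressed TGF-beta ligand. Its log2 CPM was 7.46, 7.53 and 7.49 in the control libraries, 6.82, 6.75 and 6.75 in the TLX+siCTL libraries, and 6.92, 7.02 and 7.11 in the siRNA libraries. The 3 groups did not overlap, and the siRNA libraries lay between the others but nearer to TLX+siCTL. TGFB1 fell by 0.72 ± 0.05 (SE, adjusted p = 1.01e-05) in TLX+siCTL, that is 1.65-fold, and rose by 0.24 ± 0.05 with the siRNA (adjusted p = 0.00687), leaving it 0.48 ± 0.05 below the control cells (log2 fold change -0.48, adjusted p = 7.57e-05). Exons of TGFB1 overlap those of HNRNPUL1 on the opposite strand, which changed by 0.04 ± 0.04 (adjusted p = 0.526) and 0.44 ± 0.04 (adjusted p = 0.000152) in the first 2 comparisons. The libraries were made with a stranded mRNA kit, but the sources used here do not say whether counting used strand. The part of HNRNPUL1 in the values of TGFB1 was not tested.

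TGFB2 (ENSG00000092969, chromosome 1, 218346235 to 218444619, plus strand) encodes a second ligand, which depends on the co-receptor TGFBR3 for efficient receptor binding. TGFB2 was at 7.59, 7.46 and 7.67 log2 CPM in the control libraries, 6.87, 6.85 and 6.89 in the TLX+siCTL libraries, and 7.76, 7.76 and 7.52 in the siRNA libraries. All 3 TLX+siCTL libraries lay below all others, and the control and siRNA libraries overlapped. TGFB2 fell by 0.71 ± 0.07 (adjusted p = 0.000108) and rose by 0.81 ± 0.07 (adjusted p = 9.62e-05), which is 1.63-fold down and 1.76-fold up. Against control cells the siRNA group differed by 0.11 ± 0.07 (95% interval -0.06 to 0.28, adjusted p = 0.335). Without S9, the lowest of the 3 for TGFB2, that difference was 0.19 (adjusted p = 0.0495).

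LTBP2 (ENSG00000119681, chromosome 14, 74498170 to 74612378, minus strand) encodes a matrix protein of the latent TGF-beta binding protein family that itself binds no latent TGF-beta but associates with elastic fibres. Its log2 CPM was 5.30, 5.37 and 5.26 in the control libraries, 4.93, 4.95 and 5.20 in the TLX+siCTL libraries, and 5.35, 5.48 and 5.62 in the siRNA libraries. The TLX+siCTL libraries were below the others, with S6 close to the controls. LTBP2 fell by 0.29 ± 0.09 (adjusted p = 0.0372), a call lost under 9 of 16 alternatives (adjusted p 0.0129 to 0.150). The rise of LTBP2 with the siRNA was 0.46 ± 0.09 (adjusted p = 0.00543) and passed under all 16. Against control cells LTBP2 in TLX+siTLX differed by 0.17 (95% interval -0.03 to 0.37, adjusted p = 0.191).

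The 2 receptors changed in opposite directions in both of the first 2 comparisons. TGFBR2 (ENSG00000163513, chromosome 3, 30606502 to 30694142, plus strand) encodes the ligand-binding type II receptor kinase. It was at 8.44, 8.36 and 8.40 log2 CPM in the control libraries, 7.43, 7.44 and 7.40 in the TLX+siCTL libraries, and 8.09, 8.20 and 8.10 in the siRNA libraries. The groups did not overlap, and their SDs were 0.04, 0.03 and 0.06. In CPM its group means were 338, 172 and 280. TGFBR2 fell by 0.98 ± 0.04 (1.97-fold, adjusted p = 8.87e-07) and rose by 0.71 ± 0.04 (1.63-fold, adjusted p = 9.31e-06), ending at a log2 fold change of -0.27 ± 0.04 from control cells (adjusted p = 0.000607).

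TGFBR1 (ENSG00000106799, chromosome 9, 99104038 to 99154192, plus strand) encodes the type I receptor kinase, also called ALK5. Its log2 CPM was 7.25, 7.17 and 7.16 in the control libraries, 7.43, 7.47 and 7.50 in the TLX+siCTL libraries, and 7.27, 7.37 and 7.27 in the siRNA libraries. TLX+siCTL was highest without overlap, but the distances were small. TGFBR1 rose by 0.27 ± 0.04 (1.21-fold, adjusted p = 0.000873) and fell by 0.16 ± 0.04 with the siRNA (adjusted p = 0.0205), the second call being lost under 5 of 16 alternatives (adjusted p 0.00966 to 0.0883). TGFBR1 in TLX+siTLX was 0.11 above control cells (95% interval 0.02 to 0.21, adjusted p = 0.0618). That difference passed under 3 of 16 alternatives, with values of 0.08 to 0.14 over all of them.

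**Figure D2:**
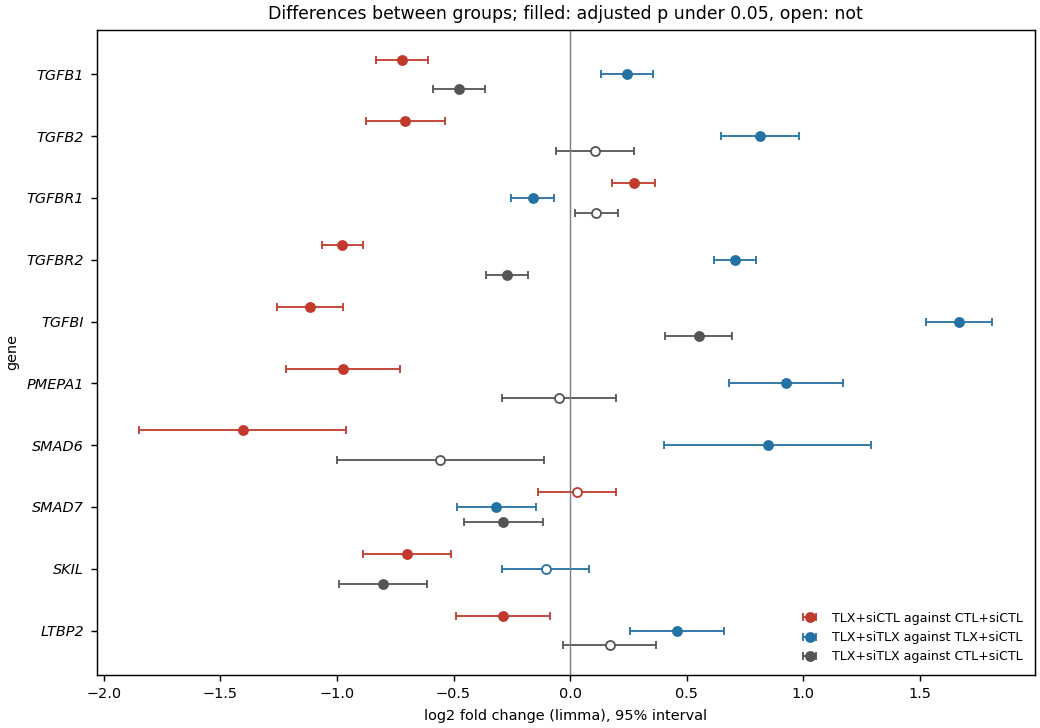
Log2 fold change with its 95% interval (horizontal axis) of each member (vertical axis) in the 3 comparisons, from 1 limma fit; filled points passed an adjusted p of 0.05 and open points did not. TGFBI has the largest rise with the siRNA (1.67) and SMAD6 the largest fall in TLX+siCTL (-1.40) of the 10, and TGFBR1 rises in TLX+siCTL (0.27), where 8 members fall.

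TGFBI and PMEPA1, which are commonly used as readouts of TGF-beta signalling, both fell in TLX+siCTL and rose with the siRNA. TGFBI (ENSG00000120708, chromosome 5, 136028895 to 136063818, plus strand) encodes a secreted matrix protein that binds integrins and is named for its induction by TGF-beta. TGFBI was at 5.74, 5.75 and 5.71 log2 CPM in the control libraries, 4.64, 4.59 and 4.62 in the TLX+siCTL libraries, and 6.14, 6.30 and 6.41 in the siRNA libraries. The siRNA libraries lay above the control libraries and not between the groups. The CPM of TGFBI averaged 53.2, 24.5 and 78.2. It fell by 1.12 ± 0.06 (2.17-fold, adjusted p = 3.75e-06) and rose by 1.67 ± 0.06 (3.18-fold, adjusted p = 2.88e-06). Of the expressed rows 0.708% had a larger absolute change with the siRNA. For the other members called in that comparison this share was 4.42% (PMEPA1) to 60.5% (TGFBR1), with TGFB1 at 44.1%. For the members called in TLX+siCTL it was 3.16% (SMAD6) to 49.5% (TGFBR1), with LTBP2 at 47.5%. TGFBI ended 0.55 ± 0.06 above control cells (adjusted p = 0.000129), and without S9 it was 0.49 above.

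PMEPA1 (ENSG00000124225, chromosome 20, 57648392 to 57711536, minus strand) encodes a membrane protein that binds SMAD proteins and keeps them from the receptor. It was at 5.85, 5.84 and 5.66 log2 CPM in the control libraries, 4.76, 4.79 and 4.88 in the TLX+siCTL libraries, and 5.50, 5.74 and 5.96 in the siRNA libraries. The siRNA libraries spread over the whole range of the control libraries and beyond it on both sides, with S7 lowest and S9 highest. PMEPA1 fell by 0.97 ± 0.11 (1.96-fold, adjusted p = 0.000149) and rose by 0.93 ± 0.11 (1.90-fold, adjusted p = 0.000358). Its difference between TLX+siTLX and control cells was -0.05 (95% interval -0.29 to 0.20, adjusted p = 0.797). Without S9 the rise of PMEPA1 was 0.81 (adjusted p = 0.00130).

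The inhibitors did not move together. SMAD6 (ENSG00000137834, chromosome 15, 66702228 to 66782848, plus strand) encodes an inhibitory SMAD best known for blocking BMP receptors. SMAD6 had the fewest reads of the members and was at 3.31, 3.16 and 3.28 log2 CPM in the control libraries, 2.24, 1.69 and 1.60 in the TLX+siCTL libraries, and 2.34, 2.83 and 2.91 in the siRNA libraries. No 2 groups overlapped, though the lowest siRNA library was only just above the highest TLX+siCTL library. SMAD6 fell by 1.40 ± 0.19 (2.65-fold, adjusted p = 0.000574) and rose by 0.85 ± 0.19 (1.80-fold, adjusted p = 0.0127). The rise was lost under 5 of 16 alternatives (adjusted p 0.00274 to 0.0793). Against control cells SMAD6 in TLX+siTLX was at -0.56 (95% interval -0.999 to -0.113, adjusted p = 0.0559), and it passed under 4 of 16. For SMAD6 in that comparison the authors' deposited table gives a signed fold change of -1.47 and a false discovery rate of 0.0276. This is the 1 case of 30 member comparisons in which the authors' deposited table lies on the other side of 0.05, and the direction was the same in all 30.

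SMAD7 (ENSG00000101665, chromosome 18, 48919853 to 48952052, minus strand) encodes the inhibitory SMAD that binds the activated TGF-beta type I receptor. SMAD7 was at 5.10, 4.81 and 4.86 log2 CPM in the control libraries, 4.92, 4.90 and 5.03 in the TLX+siCTL libraries, and 4.68, 4.61 and 4.61 in the siRNA libraries. The control and TLX+siCTL libraries overlapped, and the siRNA libraries lay below both. SMAD7 differed by 0.03 between TLX+siCTL and control cells (95% interval -0.14 to 0.20, adjusted p = 0.836). It fell by 0.32 ± 0.07 with the siRNA (1.25-fold, adjusted p = 0.0141) and was 1.22-fold lower than in control cells (adjusted p = 0.0151). Both of these calls were lost under 3 of 16 alternatives each, with adjusted p up to 0.0655 and 0.0588, the fits without S8 and without S9 among them. Without S8 or S9 9 members, in place of 10, passed the F test.

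SKIL (ENSG00000136603, chromosome 3, 170357678 to 170396835, plus strand) encodes SnoN, a corepressor that binds SMAD complexes and is degraded when the pathway is active. Its log2 CPM was 6.20, 6.16 and 6.27 in the control libraries, 5.51, 5.39 and 5.64 in the TLX+siCTL libraries, and 5.51, 5.47 and 5.25 in the siRNA libraries. Both groups of overexpressing cells lay below the controls and overlapped each other. SKIL fell by 0.70 ± 0.08 in TLX+siCTL (1.62-fold, adjusted p = 0.000219) and was 1.75-fold lower than in control cells after the siRNA (adjusted p = 7.01e-05). Between TLX+siTLX and TLX+siCTL SKIL differed by -0.10 (95% interval -0.29 to 0.08, adjusted p = 0.462). It thus passed in the 2 comparisons with control cells and not in the siRNA comparison, while SMAD7 passed in the 2 comparisons with TLX+siTLX.

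The other genes of the pathway were taken from 5 lists by role, without any test of a list. Of the expressed rows 29.3% rose and 27.4% fell in TLX+siCTL, and 23.8% rose and 22.0% fell with the siRNA. Genes of latency and activation moved unevenly. Of 11, 4 fell and 2 rose in TLX+siCTL (median -0.34, but 0.03 over the 7 expressed genes of the list), and 5 rose and 1 fell with the siRNA (median 0.46, and 0.42 over those 7). In the fit of the expressed rows alone 3 of those 7 fell and 2 rose in TLX+siCTL, and 4 rose and 1 fell with the siRNA. LTBP1, which tethers latent TGF-beta to the matrix, had group means of 7.30 ± 0.07, 5.53 ± 0.06 and 6.32 ± 0.13 log2 CPM in the order CTL+siCTL, TLX+siCTL, TLX+siTLX. It fell by 1.77 ± 0.07 (adjusted p = 6.31e-07) and rose by 0.79 ± 0.07 (adjusted p = 6.26e-05). LTBP3 followed the same order with a fall of 0.54 and a rise of 0.42. THBS1, the matrix protein thrombospondin-1 that can activate latent TGF-beta, rose in both steps, by 0.31 ± 0.08 (adjusted p = 0.0133) and 0.82 ± 0.08 (adjusted p = 0.000114). NRROS, a latency protein known from myeloid cells, changed by 0.10 in the first step (adjusted p = 0.473) and fell by 1.03 ± 0.09 with the siRNA. Without S1, S5 or S6, 1 gene of this list rose in TLX+siCTL in place of 2.

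Of 5 further receptors 1 passed in TLX+siCTL, where it fell, and 1 passed with the siRNA, where it rose. In these comparisons 30.1% and 23.7% of all rows passed. Without S9, or with the 2 groups fitted alone, 2 of the receptors fell in TLX+siCTL. TGFBR3, the co-receptor betaglycan that presents TGFB2, was at 5.20 ± 0.28, 5.38 ± 0.08 and 6.36 ± 0.16 log2 CPM in the 3 groups and rose by 0.98 ± 0.13 with the siRNA (adjusted p = 0.000847). In the first step TGFBR3 changed by 0.18 (adjusted p = 0.388). ACVR1, a type I receptor mainly for BMPs, fell by 0.40 ± 0.05 in TLX+siCTL. Of 5 signal transducers 1 passed in TLX+siCTL, where it rose, and 1 rose and 2 fell with the siRNA. Without S9, or with the 2 groups fitted alone, 1 transducer also fell in TLX+siCTL. SMAD3, which carries the signal to DNA, rose in both steps, from 7.36 ± 0.08 to 7.70 ± 0.06 and 8.14 ± 0.13 log2 CPM (0.34 ± 0.07 and 0.44 ± 0.07, adjusted p = 0.00591 and 0.00223). SMAD4, the shared partner of the receptor SMADs, fell by 0.32 ± 0.08 with the siRNA (adjusted p = 0.0193), and ZFYVE9, the adaptor SARA, by 0.17 ± 0.04. Of these 2 falls 1 was left without S5, S6, S8 or S9 or with the 2 groups fitted alone, and none without limma's intensity trend.

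Of 11 repressors and feedback inhibitors outside the members, 3 rose and 4 fell in TLX+siCTL. With the siRNA 1 rose and 4 fell, or 2 fell with the groups of that comparison fitted alone. All but LDLRAD4, which passed in neither comparison, were expressed. Of the expressed rows 29.3% rose and 27.4% fell in TLX+siCTL, and 23.8% rose and 22.0% fell with the siRNA. SMURF2, a ubiquitin ligase that SMAD7 brings to the receptor, rose from 7.48 ± 0.01 to 8.35 ± 0.06 log2 CPM (0.86 ± 0.06, adjusted p = 1.36e-05) and was at 8.24 ± 0.13 after the siRNA. SKI, a corepressor related to SKIL, rose by 0.39 ± 0.05 in TLX+siCTL, where SKIL fell. The homeodomain corepressors TGIF1 and TGIF2 went opposite ways in both steps, TGIF1 falling by 0.64 and 0.54 and TGIF2 rising by 0.69 and 0.58.

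SMAD target genes outside the members mostly fell in TLX+siCTL. Of 31 with a row, 21 fell and 2 rose there (median -0.58), and 15 rose and 8 fell with the siRNA (median 0.25). With each library left out in turn 19 to 21 fell in the first comparison and 13 to 15 rose in the second, where 4 fell without S4 or S5 and 5 without S7. In TLX+siTLX 17 were below control cells and 6 above (median -0.41). These counts are over all 31, of which 26 were expressed. In the fit of the expressed rows alone 21 of the 26 fell and 2 rose in TLX+siCTL. With the siRNA 14 rose and 7 fell in that fit. Of the expressed rows 29.3% rose and 27.4% fell in TLX+siCTL, and 23.8% rose and 22.0% fell with the siRNA. In TLX+siTLX 31.2% of the expressed rows were below control cells and 32.4% above. This list was chosen with earlier results of these data known, so the counts are descriptions. FN1, the matrix protein fibronectin, was at 9.78 ± 0.05, 7.76 ± 0.06 and 8.88 ± 0.09 log2 CPM in the 3 groups and fell by 2.02 ± 0.06. COL4A1, a basement membrane collagen, was at 6.65 ± 0.09, 5.80 ± 0.05 and 7.49 ± 0.04, above control cells after the siRNA as TGFBI was (0.84 ± 0.05, adjusted p = 2.73e-06). IL11, a cytokine tied to bone metastasis, fell by 1.96 ± 0.11 and rose by 0.54 ± 0.11. PTHLH, the parathyroid hormone-related protein, fell by 1.90 ± 0.25 and stood at 0.17 ± 0.23 after the siRNA, against 2.57 ± 0.26 in control cells. CCN2, a matricellular growth factor chosen after its values were seen, was among the 2 that rose in TLX+siCTL, by 1.67 ± 0.05 (adjusted p = 2.78e-07), and rose by 0.37 ± 0.05 with the siRNA.

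**Figure D3:**
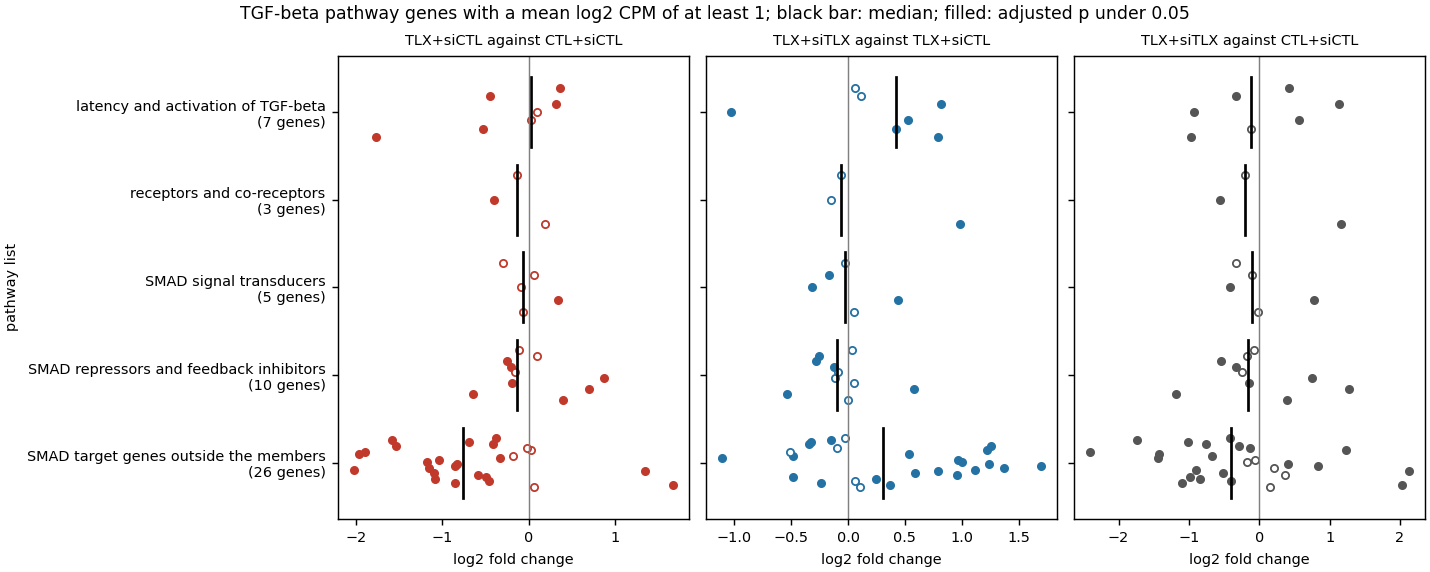
Log2 fold change (horizontal axes) of the genes of each list (vertical axis) in the 3 comparisons, for genes averaging 1 log2 CPM or more; filled points passed an adjusted p of 0.05, and black bars are medians. Most of the 26 target genes shown lie left of 0 in TLX+siCTL against CTL+siCTL (median -0.76), and in TLX+siTLX against TLX+siCTL they spread to both sides (median 0.31).

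TGFBI, SMAD6 and TGFBR2 had the widest ranges of group means of the 10, at 1.67, 1.40 and 0.98 log2 units. For each, the 12554 other expressed rows were ordered by the root mean square difference of the centred values (log2 CPM minus the row's mean) over the 9 libraries. The rows nearest to TGFBI were MT-ND6, a mitochondrially encoded subunit of complex I (0.11), the ligand WNT7B (0.13) and CCBE1, a secreted protein of lymphatic growth (0.13). Those nearest to SMAD6 were NOXA1, an NADPH oxidase activator (0.15), LRP3 (0.15) and the proprotein convertase PCSK6 (0.16). PGM2L1 (0.06), the Wnt receptor FZD5 (0.07) and HIF1A, the oxygen-regulated transcription factor (0.08), lay nearest to TGFBR2. HIF1A changed by -0.83 and 0.54 in the first 2 comparisons, where TGFBR2 changed by -0.98 and 0.71. These are descriptions over 9 libraries that form 3 groups.

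**Figure D4:**
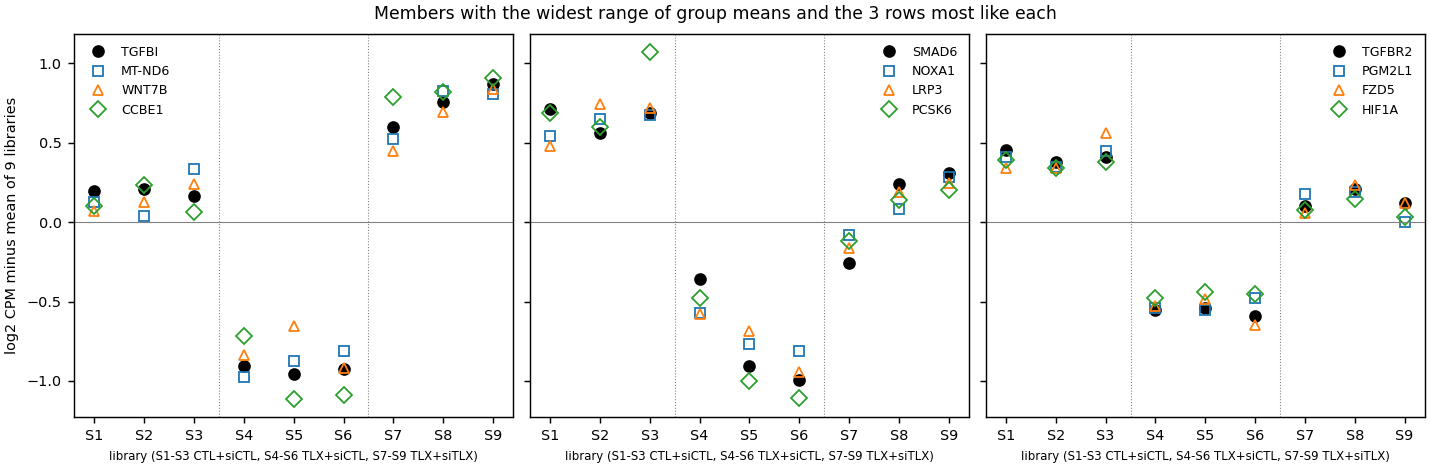
Log2 CPM minus the row's mean over the 9 libraries (vertical axis) by library (horizontal axis) for TGFBI, SMAD6 and TGFBR2 (filled circles) and the 3 rows nearest to each (open symbols). In TLX+siCTL all rows shown lie below their mean; in TLX+siTLX the rows nearest to TGFBI lie above their control values, and those nearest to TGFBR2 lie between the other groups.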

How the data were processed

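RNA was sequenced in 9 libraries, 3 per group. The authors deposited log2 CPM values for 27548 rows, and a table of their own comparisons. It holds, as the authors deposited them, a signed fold change score in which a fall is minus the inverse ratio, the raw p-value, and the false discovery rate. The tools were kallisto 0.44.0, limma and edgeR and the build GRCh38, per the submitters' processing notes, which give no roles. Libraries were made with a stranded mRNA kit, per the labels' protocols. Table columns name the group and a running number found in no label, so libraries are called S1 to S9, and no replicate numbers could be assigned. The labels leave unsaid whether replicates are separate cultures. A p-value here weighs a difference of group means only against how far libraries of a group lie apart, which may be technical.

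Deposited values were tested with limma 3.58.1 in R 4.3.3, in 1 fit of 9 libraries with a mean per group and an intensity trend, two-sided, Benjamini-Hochberg adjusted over the 27548 rows, with a threshold of 0.05. The script was tested on simulated data. The lowest value, -5.33 in all 9 libraries, fits a prior count of 2, which understates changes of genes with few reads. Estimated reads were rebuilt from it; 29.6% to 31.5% of the values of a library lay within 0.01 of a whole read, so no count model was used. No pair of libraries was a repeat of 1 library (chi-square per gene of 9.22 or more, on genes with at least 50 reads).

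The members and gene lists were chosen with earlier results of these data known. Of each list the 4 or fewer called genes with the largest change and a mean log2 CPM of at least 1 were named. CDKN2B and KRT5 of the lists had no row. The values of 1 further list gene are not reported here. CPM values are not per length, so levels of different genes were not compared. Alternatives were a minimum mean log2 CPM of 1, log2(CPM + 1), median centring, quantile normalization, no trend, fits of 2 groups, library weights, and leaving out each library. Positions are from GENCODE 29 (GRCh38), by Ensembl identifier.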

Additional observations from a re-analysis of the deposited data

How the results depend on the processing

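No paired analysis was possible because the columns of the deposited table carry no replicate numbers from the labels. Of the 30 member differences, 22 kept their side of the threshold under each of the 16 alternatives run. Of these 22, a pair that passed in no fit changed sign: SMAD7 in TLX+siCTL against CTL+siCTL (-0.03 to 0.12) and PMEPA1 in TLX+siTLX against CTL+siCTL (-0.16 to 0.07). The 8 others were LTBP2 in TLX+siCTL against CTL+siCTL, TGFBR1, SMAD6 and SMAD7 in TLX+siTLX against TLX+siCTL, and TGFB2, TGFBR1, SMAD6 and SMAD7 in TLX+siTLX against CTL+siCTL, and none of these changed direction. With each library left out 8 to 9, 6 to 9 and 4 to 6 of the 10 members passed in the 3 comparisons, and 7033 to 8664, 5219 to 6241 and 8312 to 9209 rows did. For SMAD6 the rise with the siRNA lost its call in the fit of the 2 groups alone (0.85, adjusted p = 0.0793) and without S5, S6, S8 or S9; the cause was not tested. Median centring and quantile normalization moved the log2 fold changes of all rows by a median of -0.03 to 0.02, depending on the comparison. Of the 30 counts of list genes, 21 stayed within 1.5 times of their value under all alternatives. Among the members SMAD6 had the fewest reads and the widest intervals.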

Other observations

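Other list genes, chosen after their values were seen, had patterns of their own. ITGB8, an integrin subunit that activates latent TGF-beta, changed by -0.10 in TLX+siCTL (adjusted p = 0.615) and rose by 1.85 with the siRNA. NEDD9, an adhesion scaffold and SMAD target, also changed little in the first step (0.02, adjusted p = 0.880) and rose by 1.22 in the second. TPM1, which encodes an actin-binding tropomyosin, went the other way from most target genes with the siRNA and fell by 1.11, after a fall of 0.34 in TLX+siCTL. SNAI2, a transcription factor of epithelial-mesenchymal transition, rose in both steps, by 1.34 and 0.79, while SNAI1 fell by 1.21 in TLX+siCTL and was at an adjusted p of 0.201 with the siRNA. CAV1, a caveolar protein that also takes part in receptor turnover, rose by 0.96 and 0.99.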
